A study of Mus musculus with 6 samples.

Results

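The cytochrome P450 genes of the mouse were read from arrays of 393P cells, a line from a mouse lung adenocarcinoma spelled 9393P in part of the labels. The genes were chosen by symbol alone (Cyp, a family number and a subfamily letter), which leaves out Cyp51, and they numbered 98 of the 19505 genes on the array. Each had 1 probe set, they fell into 15 numbered families, and 3 carried symbols of pseudogenes. The 2 groups were 3 samples with stable transfection of AC9, labelled as overexpression, and 3 samples with the empty vector, here called VECTOR. All cells grew in RPMI with serum and were selected with puromycin or G418 after transfection. The labels used here do not state which drug each group received, nor whether a sample was a clone, a pool or a culture of its own. The effects of the drug and of the selected cells cannot be told apart from that of AC9. A p-value here covers the variation among the samples of a group only, and that variation may be technical.

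Cytochrome P450 enzymes are heme proteins that insert an oxygen atom into a substrate, using electrons passed on by a reductase in the endoplasmic reticulum or by a ferredoxin in mitochondria. The first 3 families act largely on foreign chemicals and are abundant in the liver and in the secretory cells of the lung airway. Other families make or break down fatty acid mediators, bile acids, steroid hormones, vitamin D and retinoic acid. Several are controlled by ligand-activated receptors, of which the aryl hydrocarbon receptor is the classical case.

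Of the 98 P450 genes, 16 read above the negative-control bound in both groups, Cyp24a1 did so in AC9 alone, and 81 lay under it in both. The bound is the 90th percentile of the 5222 negative control probe sets, and it averaged 6.03 on the log2 intensity scale over the VECTOR arrays and 6.09 over the AC9 arrays. The genes that just exceeded it in both groups were Cyp3a13, at 6.10 in VECTOR and 6.11 in AC9, and Cyp4f16, at 7.07 and 6.13. Those just under it were Cyp4f18 (6.02 and 6.05), Cyp46a1 (5.93 and 5.82) and Cyp2d40 (5.91 and 5.88). Cyp24a1 passed it in AC9 by a small margin, with a mean of 6.10 there and 5.80 in VECTOR. For Cyp24a1, AC9 replicate 3 (5.96) lay under the bound of its array and VECTOR replicate 1 (6.28) above that of its own. A probe set under the bound was not well above background, which does not show that the transcript was absent.

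In AC9 cells 9 P450 genes were lower and 2 higher than in VECTOR by limma at a Benjamini-Hochberg adjusted p of 0.05 over all genes. The 7 genes that fell with a reading above the bound were Cyp1b1, Cyp4b1, Cyp26b1, Cyp2j6, Cyp4f16, Cyp2s1 and Cyp4f13, of which the first 4 changed by at least 2-fold. The other 2 lower genes, Cyp4a12a and Cyp4a12b, and the 2 higher ones, Cyp27b1 and Cyp2ab1, lay under the bound in both groups, so no size is given for them. In bulk RNA a fall in the share of cells that express a gene and a fall in RNA per cell cannot be told apart. Over all genes 17.6% passed, 9.29% lower and 8.26% higher; over the P450 genes the shares were 11.2%, 9.18% and 2.04%. The share of lower calls was near that of all genes. Groups without overlap were found for 14 P450 genes with AC9 lower and 11 with AC9 higher, against 35.1% of all genes (17.7% lower and 17.3% higher). The median log2 change was -0.02 over the P450 genes and 0.02 over all genes.

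Among the 16 P450 genes above the bound in both groups, 7 (43.8%) fell and by limma 0 rose, with 0 higher at an unadjusted p under 0.05 as well. Of all 10303 genes above it in both groups, 27.8% were called, 14.6% lower and 13.2% higher. These counts depend on the bound. At the 95th percentile of the negative controls 10 P450 genes exceeded it in both groups and 3 of them (Cyp1b1, Cyp2s1 and Cyp4f13) were lower, against 15% of all genes above it. At the 75th percentile 30 did, with 7 lower (23.3%) and 1 higher, against 13.1% and 11.3% of all genes above it. At the 90th percentile, the 7 lower genes were the only ones of the 16 whose groups did not overlap, against 51.7% of those 10303 genes. The array's own background probe sets also read lower in AC9. Of 23 such sets, 19 had every AC9 array below every VECTOR array, and the largest log2 difference was -0.50. The negative control probe sets did not run that way, with a median log2 difference of 0.02. The part of the background shift in the P450 calls was not tested.

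**Figure D1:**
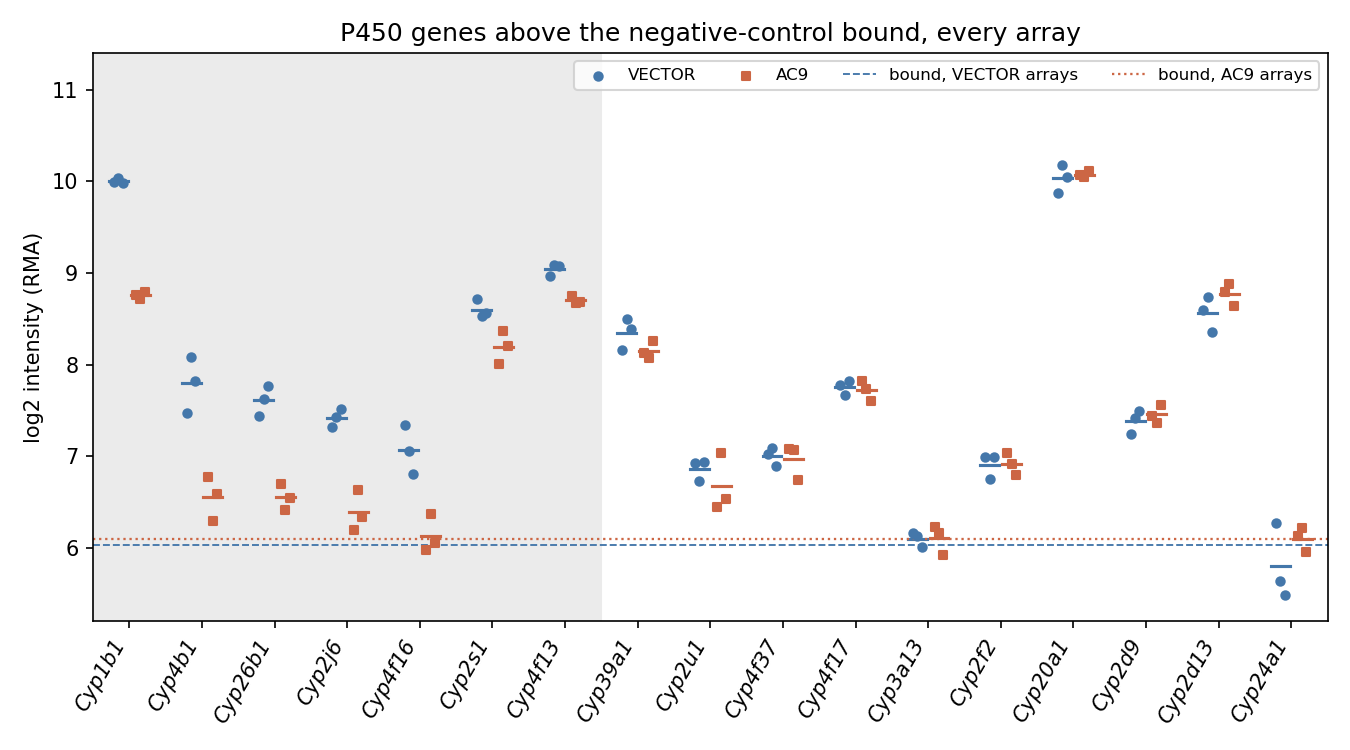
Log2 intensity of the 17 P450 genes above the bound in at least 1 group, with 1 point per array (3 VECTOR circles, 3 AC9 squares) and bars at group means; dashed and dotted lines mark the mean bound of each group, at 6.03 and 6.09. In the 7 shaded genes every AC9 array lies below every VECTOR array, and in the other 10 the groups overlap.

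**Figure D2:**
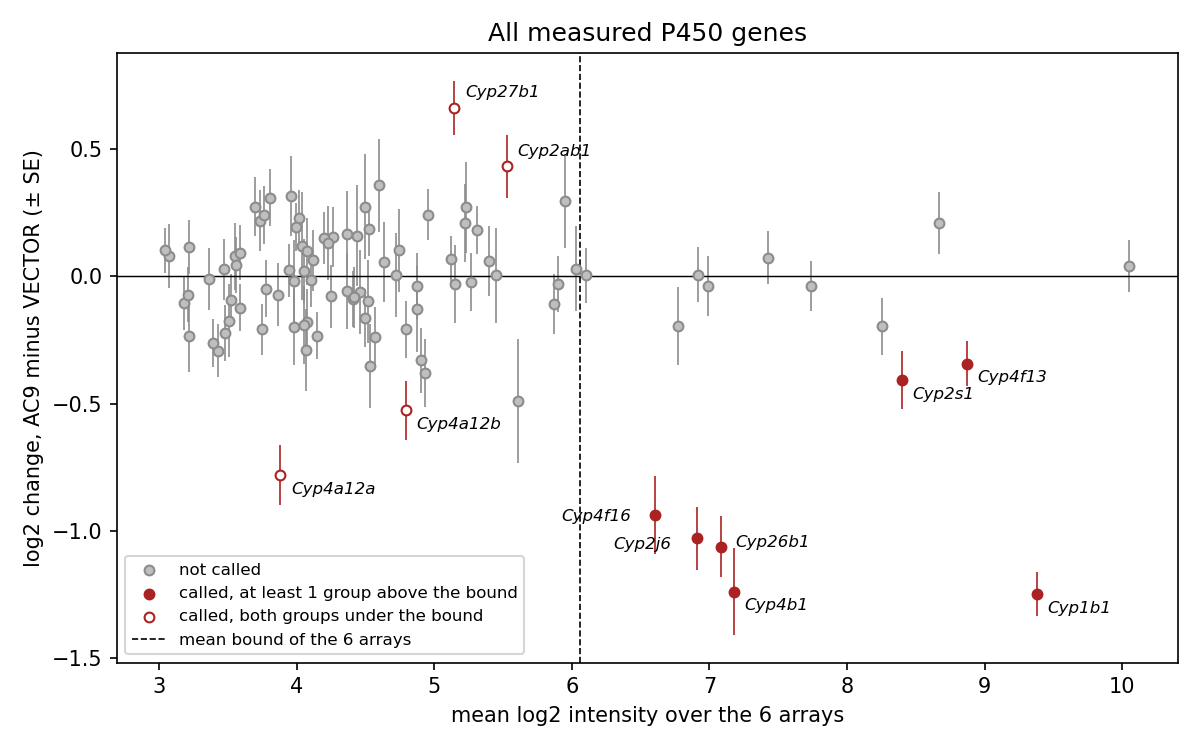
Log2 change (AC9 minus VECTOR, with the standard error of the limma fit) against the mean log2 intensity over 6 arrays for all 98 P450 genes. To the right of the dashed line, at 6.06, the 7 called genes (filled red) all lie under 0; the 4 open red symbols were called with both groups under the bound, where size is not interpreted.

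The smallest p among the P450 genes was found in family 1. Cyp1b1 hydroxylates polycyclic aromatic hydrocarbons and oestrogens and is known from tissues outside the liver. It read 10.00, 10.04 and 9.98 in VECTOR and 8.76, 8.72 and 8.79 in AC9. The AC9 arrays were all low, with a gap between the groups far wider than the spread within either. The log2 change was -1.25 (SE 0.09; 10.00 ± 0.03 against 8.76 ± 0.04, SD, n = 3), a 2.38-fold difference with a limma adjusted p of 3.35e-05. Cyp1a1 and Cyp1a2, which metabolise carcinogens and are the textbook targets of the aryl hydrocarbon receptor, were under the bound on all 6 arrays. Neither passed the test (adjusted p 0.197 and 0.207).

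Ahr, the gene of that receptor, read 8.26, 8.33 and 8.01 in VECTOR and 8.94, 8.87 and 9.06 in AC9. The groups did not overlap, and Ahr rose by 0.76 (SE 0.11, limma adjusted p 0.00194). In the list of this receptor's pathway, 3 of 10 measured genes rose, 1 fell and 6 did not pass, with a median of 0.19. That is 30.0% higher and 10.0% lower, against 8.26% and 9.29% of all genes. Of the 10, 7 were above the bound in both groups, where all genes gave 13.2% higher and 14.6% lower. Ptges3, a co-chaperone of the receptor complex, rose by 0.69 (adjusted p 0.0106). Tiparp, a target of the receptor that also represses it, rose by 0.65 (adjusted p 0.00262). Aldh3a1, an aldehyde dehydrogenase inducible through the receptor, read 10.20, 10.53 and 10.24 in VECTOR and 8.34, 8.74 and 8.47 in AC9. All its AC9 arrays were low, with a log2 change of -1.81 (SE 0.13, adjusted p 4.52e-05). Arnt, the partner with which the receptor binds DNA, had a change of -0.05 (adjusted p 0.761).

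Among the called P450 genes above the bound, 5 kept their call under every other setting of the fit. The result rests on these genes, so the stretches upstream of them are printed. Each is the 250 bases before the RefSeq start of the gene, read along its own strand, in build GRCm38.p6: Cyp1b1 at chr17:79715062-79715311 (minus strand), Cyp4b1 at chr4:115647722-115647971 (minus strand), Cyp26b1 at chr6:84593811-84594060 (minus strand), Cyp2j6 at chr4:96553652-96553901 (minus strand) and Cyp4f16 at chr17:32536307-32536556 (plus strand). Capitals mark matches on either strand to 5 short motifs: GCGTG, the core bound by the aryl hydrocarbon receptor; TGACG, the core site of CREB; TTGCNNAA, bound by C/EBP factors; AGGTCA, the core site of nuclear receptors; and TATAAA. None of the motifs contains another. The probe sets of these genes are TC1700002571.mm.2 for Cyp1b1, TC0400003321.mm.2 for Cyp4b1, TC0600002592.mm.2 for Cyp26b1, TC0400003097.mm.2 for Cyp2j6 and TC1700000564.mm.2 for Cyp4f16.
Cyp1b1: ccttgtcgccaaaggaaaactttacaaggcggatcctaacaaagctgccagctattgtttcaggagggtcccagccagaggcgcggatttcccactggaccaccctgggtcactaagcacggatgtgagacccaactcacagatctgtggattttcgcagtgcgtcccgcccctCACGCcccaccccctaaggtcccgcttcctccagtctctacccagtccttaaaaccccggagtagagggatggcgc
Cyp4b1: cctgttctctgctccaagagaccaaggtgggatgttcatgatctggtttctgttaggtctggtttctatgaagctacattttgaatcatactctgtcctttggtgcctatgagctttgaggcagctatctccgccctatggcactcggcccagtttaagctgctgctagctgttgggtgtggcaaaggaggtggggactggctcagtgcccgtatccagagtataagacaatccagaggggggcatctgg
Cyp26b1: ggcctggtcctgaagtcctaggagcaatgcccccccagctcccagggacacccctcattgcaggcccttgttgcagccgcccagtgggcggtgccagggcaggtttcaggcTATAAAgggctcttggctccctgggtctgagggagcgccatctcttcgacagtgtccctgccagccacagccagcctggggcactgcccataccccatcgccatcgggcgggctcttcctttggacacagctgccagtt
Cyp2j6: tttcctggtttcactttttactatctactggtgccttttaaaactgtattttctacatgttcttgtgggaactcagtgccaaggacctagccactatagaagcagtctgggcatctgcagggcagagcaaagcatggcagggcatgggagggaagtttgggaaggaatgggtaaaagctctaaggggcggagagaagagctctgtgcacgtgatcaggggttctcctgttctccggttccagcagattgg
Cyp4f16: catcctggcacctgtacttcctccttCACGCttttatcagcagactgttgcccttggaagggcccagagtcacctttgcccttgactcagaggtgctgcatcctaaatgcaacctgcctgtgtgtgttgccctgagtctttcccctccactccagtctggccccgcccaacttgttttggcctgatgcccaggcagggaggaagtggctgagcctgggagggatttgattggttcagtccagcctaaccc

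Cyp1b1 and Cyp4f16 each held 1 GCGTG, both as its reverse complement CACGC. It began 76 bases before the start of Cyp1b1 and 224 bases before that of Cyp4f16. Cyp26b1 held TATAAA, 139 bases before its start, and Cyp4b1 and Cyp2j6 held none of the 5 motifs. Of all 32851 windows of this length in the RefSeq table, 28.2% held GCGTG, 17.8% TGACG, 9.56% TTGCNNAA, 14.0% AGGTCA and 12.4% TATAAA. A window was listed for 72 of the 98 P450 genes, and of these 14 held GCGTG, 4 TGACG, 16 TTGCNNAA, 16 AGGTCA and 26 TATAAA. A G+C content of 64.8% was found for Cyp26b1, 58.0% for Cyp1b1, 56.8% for Cyp4f16, 51.6% for Cyp4b1 and 49.6% for Cyp2j6, against a median of 52.4% over all windows. The count of CG pairs was 12 in Cyp1b1, 7 in Cyp26b1, 3 in Cyp4b1, 3 in Cyp2j6 and 2 in Cyp4f16, against a median of 6.

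Family 4, whose enzymes oxidise the far end of fatty acids and of mediators such as leukotrienes, had 21 measured genes, of which 5 (23.8%) fell, 0 rose and 16 did not pass. Over all genes the share was 9.29% lower, and it was 14.6% for genes above the bound in both groups and 1.52% for genes under it in both. Of the 5 lower genes 3 were above the bound and 2 under it. Unadjusted p-values under 0.05 were reached by 8 of the 21, and 17 of the 21 changes were negative (9224 of 19505 over all genes), with a median of -0.13 against 0.02 over all genes. Only 5 of the 21 read above the bound in both groups, and 16 were under it in both. Cyp4b1, a lung-enriched enzyme that also activates foreign compounds, read 7.47, 8.09 and 7.82 in VECTOR and 6.78, 6.30 and 6.59 in AC9. Arrays within each group were spread widely, yet the lowest VECTOR array stood above the highest AC9 array. The log2 change was -1.24 (SE 0.17; 7.80 ± 0.31 against 6.56 ± 0.24, SD, n = 3), a 2.36-fold difference with an adjusted p of 0.00130.

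Cyp4f16 read 7.35, 7.06 and 6.81 in VECTOR and 5.98, 6.37 and 6.05 in AC9. The groups did not overlap, and 2 of the 3 AC9 arrays fell under their own bound, so the fold may be too small. Its log2 change was -0.94 (SE 0.15), a 1.91-fold difference, with a limma adjusted p of 0.00318. Cyp4f13 read 8.97, 9.09 and 9.08 in VECTOR and 8.75, 8.68 and 8.69 in AC9. This gap was narrow but free of overlap, with a log2 change of -0.34 (SE 0.09, limma adjusted p 0.0276). The call of Cyp4f13 was lost without any 1 of 5 arrays: VECTOR replicate 2 (adjusted p 0.0752), VECTOR replicate 3 (0.0661), AC9 replicate 1 (0.0670), AC9 replicate 2 (0.0853) and AC9 replicate 3 (0.0856).

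The remaining 2 family 4 genes above the bound did not pass. Cyp4f17 read 7.77, 7.67 and 7.82 in VECTOR and 7.83, 7.73 and 7.60 in AC9. Cyp4f37 read 7.03, 7.09 and 6.89 in VECTOR and 7.08, 7.07 and 6.75 in AC9. The groups overlapped in each gene. Their changes were -0.04 each, with 95% intervals of -0.26 to 0.19 for Cyp4f17 and -0.30 to 0.23 for Cyp4f37, and the sign of both turned with a repeated quantile normalization (0.0067 and 0.0087). In the RefSeq order of genes, Cyp4f16 lies between Cyp4f17 and Cyp4f37.

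Cyp4b1 stands in another run of 11 P450 genes, together with the Cyp4a genes and Cyp4x1. Neighbours in a run were at most 10 places apart in the gene order. Cyp4a12a, a fatty acid hydroxylase of male mouse kidney, read 4.22, 4.13 and 4.45 in VECTOR and 3.58, 3.32 and 3.57 in AC9. Its near-identical copy Cyp4a12b read 5.18, 5.11 and 4.87 in VECTOR and 4.46, 4.45 and 4.68 in AC9. Both were called lower (adjusted p 0.00225 and 0.0127) with every array under the bound, and signal of each could come from the other, since the sequences of the probes were not used here. The call of Cyp4a12b needed AC9 replicate 1, without which its adjusted p was 0.0533. Within the 8 Cyp4a genes, all under the bound, 6 did not pass. Of the negative control probe sets 2.87% were called when fitted together with the genes, 85 higher and 65 lower. That fit was adjusted over genes and controls together, and it included the controls above the bound. In the fit of the genes alone, 3.50% of all genes under the bound in both groups were called, 1.98% higher and 1.52% lower. For the 81 P450 genes under it the share was 4.94%.

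**Figure D3:**
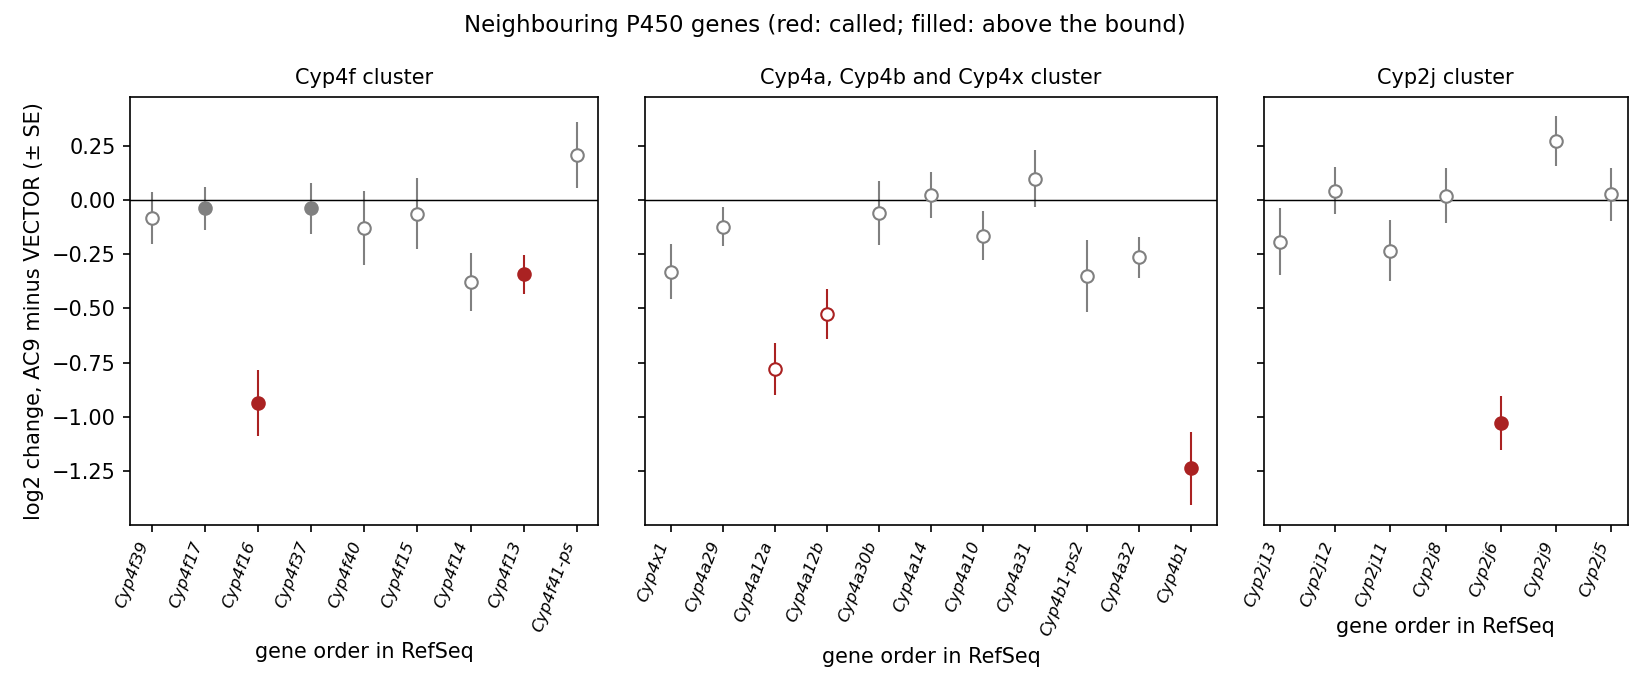
Log2 change (AC9 minus VECTOR, with standard error) of P450 genes in 3 runs of neighbours, in RefSeq gene order; red marks called genes and filled symbols genes above the bound in at least 1 group. Cyp4f16 lies at -0.94 between neighbours near 0, and Cyp2j6 at -1.03 is the only called gene of its 7.

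Retinoic acid is removed by the family 26 enzymes, and of these only Cyp26b1 read above the bound. It gave 7.44, 7.63 and 7.77 in VECTOR and 6.70, 6.41 and 6.54 in AC9. Every AC9 array was low, and the distance between the groups exceeded the range within each. Cyp26b1 fell by 1.06 on the log2 scale (SE 0.12; 7.61 ± 0.17 against 6.55 ± 0.15, SD, n = 3), 2.09-fold, with an adjusted p of 0.000431. Cyp26a1 and Cyp26c1, the other members, were under the bound and did not pass (adjusted p 0.886 and 0.924).

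Of 13 measured genes that bring in and convert retinoids, 4 fell, 2 rose and 7 did not pass, with a median of 0.02. These were 30.8% lower and 15.4% higher, against 9.29% and 8.26% over all genes. Of the 13, 9 were above the bound in both groups, where all genes gave 14.6% lower and 13.2% higher. Rbp4, the carrier of retinol, read 12.56, 12.57 and 12.58 in VECTOR and 11.04, 11.07 and 11.04 in AC9. Its arrays were tight within each group, with a log2 change of -1.52 (SE 0.08, limma adjusted p 1.28e-05). Stra6, the membrane receptor that takes up retinol from Rbp4, read 9.30, 9.08 and 9.19 in VECTOR and 7.997, 7.67 and 7.91 in AC9. It too was low on every AC9 array, with a change of -1.33 (SE 0.11, limma adjusted p 0.000100). Aldh1a1, which makes retinoic acid from retinal, changed by -0.78 (SE 0.13, limma adjusted p 0.00396).

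Family 2, the largest, had 47 members outside the vitamin D enzyme Cyp2r1. Of these 2 fell with a reading above the bound, 1 rose under it and 44 did not pass, with a median of 0.04. The shares were 4.26% lower and 2.13% higher, against 9.29% and 8.26% over all genes. Of the 47, 6 were above the bound in both groups and 41 under it in both, where all genes gave 14.6% and 1.52% lower. Cyp2j6, of the subfamily that turns arachidonic acid into epoxides, read 7.32, 7.43 and 7.52 in VECTOR and 6.20, 6.64 and 6.34 in AC9. No AC9 array reached the VECTOR range, and Cyp2j6 fell by 1.03 on the log2 scale (SE 0.12), 2.04-fold, with an adjusted p of 0.000678. The other 6 Cyp2j genes lay under the bound in both groups and none passed, with 1 of them at an unadjusted p under 0.05.

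Cyp2s1, an epithelial enzyme of the airway and skin, read 8.71, 8.53 and 8.56 in VECTOR and 8.01, 8.37 and 8.20 in AC9. The groups lay close but apart, with a change of -0.41 (SE 0.12, limma adjusted p 0.0386). This call was lost without any of VECTOR replicates 1, 2 and 3 (adjusted p 0.117, 0.0619 and 0.0690) or AC9 replicates 1 and 3 (0.136 and 0.0922). Cyp2ab1, read at 5.39, 5.30 and 5.25 in VECTOR and at 6.002, 5.65 and 5.58 in AC9, was called higher (adjusted p 0.0396) with every array under the bound. Its call went without any of VECTOR replicates 1, 2 and 3 (0.0664, 0.0954 and 0.103) or AC9 replicates 1 and 2 (0.122 and 0.0592).

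4 more family 2 genes read above the bound and did not pass. Cyp2f2, which activates naphthalene in the club cells of the airway, read 6.99, 6.75 and 6.99 in VECTOR and 7.03, 6.92 and 6.80 in AC9. Cyp2u1, a fatty acid hydroxylase, read 6.92, 6.74 and 6.94 in VECTOR and 6.44, 7.04 and 6.54 in AC9, where 1 AC9 array stood above all others. Cyp2d13 read 8.59, 8.74 and 8.36 in VECTOR and 8.80, 8.88 and 8.64 in AC9, and Cyp2d9 read 7.24, 7.42 and 7.49 against 7.44, 7.37 and 7.56. The groups overlapped in all 4 genes. The 95% interval of the log2 change ran from -0.24 to 0.25 for Cyp2f2, from -0.54 to 0.15 for Cyp2u1, from -0.06 to 0.48 for Cyp2d13 and from -0.16 to 0.31 for Cyp2d9. The 9 Cyp2d genes are close copies, as are the 14 Cyp2c genes, and signal could be shared among them. All 14 Cyp2c, 5 Cyp2b and 4 Cyp2a genes were under the bound with none called, and 1 of the 14 Cyp2c genes and 0 of the others had an unadjusted p under 0.05.

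Enzymes that act beside or after the P450s were read from a list of conjugating and hydrolysing enzymes: 6 of 21 measured fell, 1 rose and 14 did not pass, with a median of 0.01. These were 28.6% lower and 4.76% higher, against 9.29% and 8.26% over all genes. Of the 21, 5 were above the bound in both groups and 14 under it in both, where all genes gave 14.6% and 1.52% lower. Ephx1, the microsomal epoxide hydrolase that opens epoxides made by P450s, read 8.64, 8.71 and 8.44 in VECTOR and 7.26, 7.79 and 7.53 in AC9. All AC9 arrays were low, with a change of -1.07 (SE 0.14, limma adjusted p 0.00103). Tpmt, which methylates thiopurines, changed by -0.59 (adjusted p 0.00430). Nat2, an arylamine acetyltransferase, was at least 1.18-fold lower (adjusted p 0.0109), a lower limit because its AC9 level of 5.64 was under the bound.

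Vitamin D is activated by Cyp2r1 and Cyp27b1 and broken down by Cyp24a1. Cyp27b1 read 4.86, 4.86 and 4.73 in VECTOR and 5.53, 5.60 and 5.30 in AC9. Its AC9 arrays were the higher ones without overlap (adjusted p 0.00298), but all 6 lay under the bound. Cyp24a1 read 6.28, 5.64 and 5.49 in VECTOR and 6.13, 6.22 and 5.96 in AC9. VECTOR replicate 1 was the highest of the 6 arrays, and the change of 0.30 did not pass (adjusted p 0.329, 95% interval -0.12 to 0.71). Without that array the change was 0.53 and was called (adjusted p 0.0241). Cyp2r1 was under the bound, with an adjusted p of 0.720. Vdr, the vitamin D receptor that induces Cyp24a1, had a change of -0.03 (adjusted p 0.919).

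Bile acid and oxysterol enzymes numbered 6, of which 0 passed (also 0 at an unadjusted p under 0.05) and only Cyp39a1 was above the bound. Cyp39a1, an oxysterol hydroxylase, read 8.16, 8.50 and 8.39 in VECTOR and 8.13, 8.08 and 8.26 in AC9. The groups overlapped, with a change of -0.20 (adjusted p 0.286, 95% interval -0.45 to 0.06). Cyp27a1, the mitochondrial sterol hydroxylase, had the widest error of all P450 genes, with readings of 5.67, 5.998 and 5.89 in VECTOR and 5.39, 4.77 and 5.93 in AC9, where the arrays of AC9 scattered under the bound. Steroid hormone enzymes numbered 5 (Cyp11a1, Cyp11b1, Cyp11b2, Cyp17a1 and Cyp21a1), all under the bound, with 0 called and 0 at an unadjusted p under 0.05.

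In the list of steroid and vitamin D handling, 3 of 16 measured genes fell, 0 rose and 13 did not pass, with a median of -0.02. That is 18.8% lower, against 9.29% of all genes. Of the 16, 9 were above the bound in both groups, where all genes gave 14.6% lower. Hsd17b11, a dehydrogenase of lipid droplets, changed by -1.02 (limma adjusted p 0.000253), Dhcr7, the last enzyme of cholesterol synthesis, by -0.82 (0.000765) and Hsd3b7, of bile acid synthesis, by -0.49 (0.0131). Hsd3b7 lost its call without AC9 replicate 3 (0.0541). Of 3 P450 enzymes listed under other symbols, 0 passed by limma (1 at an unadjusted p under 0.05), with a median of 0.18. Cyp51, the sterol demethylase, had the smallest p of these, with a change of -0.36 (SE 0.11, limma adjusted p 0.0574). Cyp51 was called lower with an intensity-trended robust prior (adjusted p 0.00470), with genes under the 40th percentile left out (0.0241) and with genes under the bound left out (0.0196).

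Family 3 had 9 genes, of which 0 passed by limma (1 at an unadjusted p under 0.05) and Cyp3a13 alone read above the bound, by a small margin. Cyp3a13, a drug-metabolising enzyme known also outside the liver, read 6.16, 6.13 and 6.02 in VECTOR and 6.23, 6.16 and 5.93 in AC9. Cyp20a1, an enzyme without an established substrate, read 9.87, 10.18 and 10.04 in VECTOR and 10.06, 10.04 and 10.11 in AC9. The groups overlapped in both genes. The 95% interval was -0.24 to 0.25 for Cyp3a13 and -0.19 to 0.27 for Cyp20a1, whose sign turned with a repeated quantile normalization (-0.0058).

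Among the receptors and liver-type transcription factors that control P450 genes, 4 of 20 measured fell, 1 rose and 15 did not pass, with a median of -0.11. These were 20% lower and 5% higher, where all genes gave 9.29% and 8.26%. Of the 20, 11 were above the bound in both groups, where all genes gave 14.6% lower and 13.2% higher. Cebpa, a factor that drives P450 genes in liver and lung epithelium, read 9.13, 8.97 and 8.70 in VECTOR and 7.50, 7.66 and 7.45 in AC9. Every AC9 array was low, with a change of -1.40 (SE 0.12, limma adjusted p 0.000129). Hnf4a, a nuclear receptor needed for many liver P450 genes, changed by -0.65 (SE 0.10, limma adjusted p 0.00202). Nr1h4, the bile acid receptor, was at least 1.27-fold lower (limma adjusted p 0.00867), as its AC9 level of 5.70 was under the bound.

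The list of electron donors and membrane partners of the P450s held 14 genes, of which 10 were measured. Por, the reductase of the endoplasmic reticulum, and Fdxr, the ferredoxin reductase, were not among the 10. Of the measured genes 2 were higher, 1 lower and 7 did not pass, with a median of -0.04. That is 20.0% higher and 10.0% lower, where all genes gave 8.26% and 9.29%. Of the 10, 9 were above the bound in both groups, where all genes gave 13.2% higher and 14.6% lower. Cyb5r1 rose by 0.58 (SE 0.10, adjusted p 0.00337) and Cyb5b, the outer mitochondrial cytochrome b5, by 0.43 (adjusted p 0.0137). Cyb5r3, the main cytochrome b5 reductase, changed by -0.42 (adjusted p 0.0110), and both Cyb5b (0.0553) and Cyb5r3 (0.0529) lost their call without AC9 replicate 1. Of 12 genes of heme synthesis and breakdown, 2 rose, 3 fell and 7 did not pass, with a median of -0.13. These were 16.7% higher and 25% lower, where all genes gave 8.26% and 9.29%. Of the 12, 10 were above the bound in both groups, where all genes gave 13.2% higher and 14.6% lower. Cpox, an enzyme late in heme synthesis, rose by 0.61 (adjusted p 0.00424) and Hmox1, the inducible heme oxygenase, by 0.55 (adjusted p 0.00352). Blvra, which reduces the biliverdin made by heme oxygenase, changed by -0.53 (adjusted p 0.0167) and lost its call without VECTOR replicate 2 (0.0581), AC9 replicate 1 (0.0689) or AC9 replicate 2 (0.0586).

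**Figure D4:**
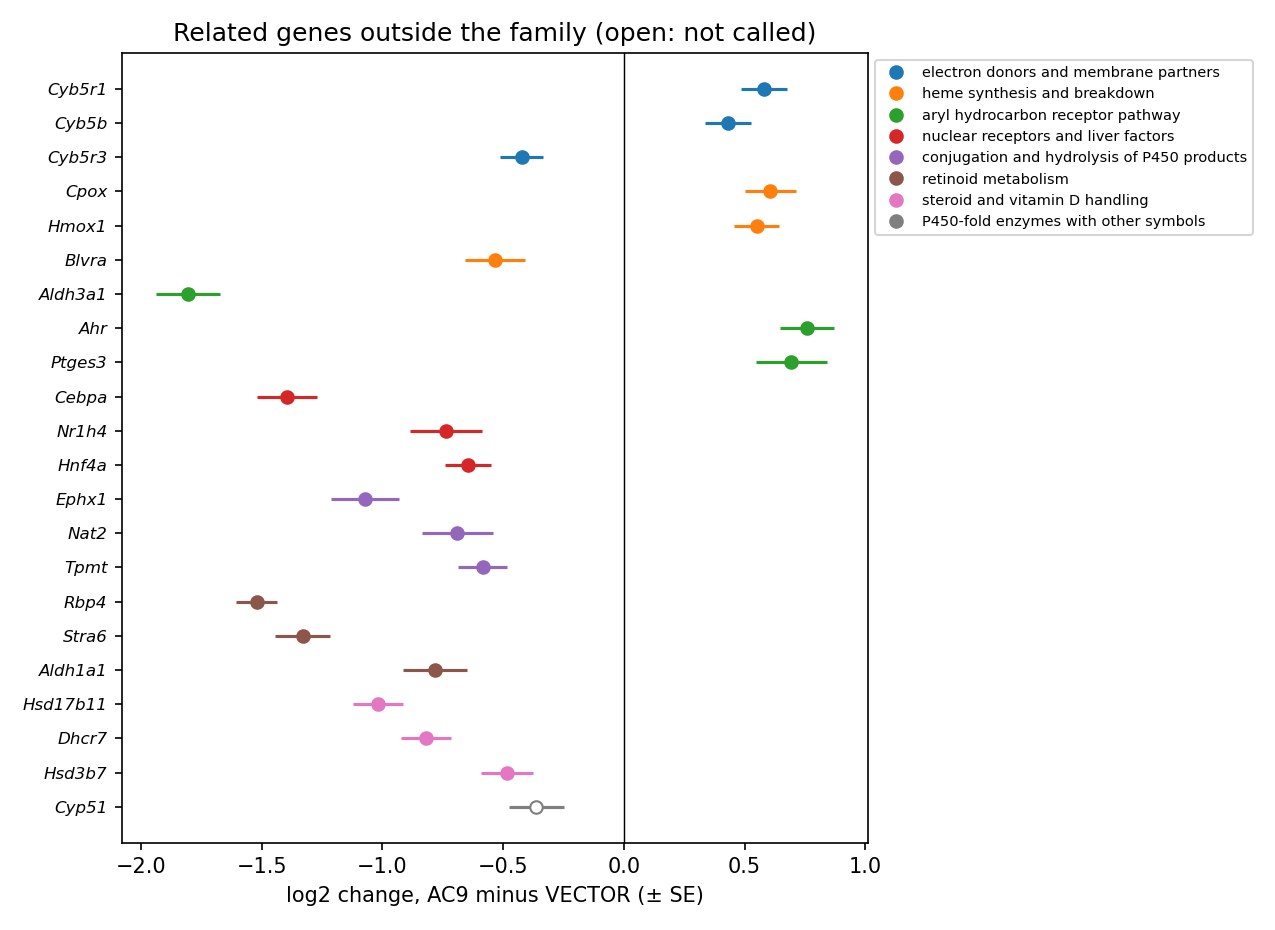
Log2 change (AC9 minus VECTOR, with standard error) of 22 genes that act with P450 enzymes or control their genes, taken from 8 lists by a fixed rule; filled symbols passed an adjusted p of 0.05. Aldh3a1 has the lowest value, -1.81, and Ahr the highest, 0.76, both from the aryl hydrocarbon receptor list.

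The labels and cell identity were checked on the same arrays. Adcy9, of which AC9 is a synonym in the RefSeq table, was higher in AC9 by 0.61 (SE 0.10, limma adjusted p 0.00264). Of 8 markers of epithelial carcinoma cells, 7 were above the bound in both groups, 3 rose and 1 fell, and their mean level was 10.23 to 10.28 in VECTOR and 10.31 to 10.37 in AC9. Markers of cells rich in P450 enzymes were mostly at background in both groups: 5 of 7 club cell markers, 7 of 9 of alveolar type 2 cells, all 9 of hepatocytes and 6 of 7 of steroid-making cells lay under the bound. In none of these 4 lists was a gene called by limma, with 2, 2, 0 and 0 at an unadjusted p under 0.05. Their mean levels ran from 4.78 to 4.94 in VECTOR and 4.57 to 4.76 in AC9 for club cells, 5.45 to 5.52 and 5.43 to 5.46 for type 2 cells, 5.22 to 5.37 and 5.22 to 5.32 for hepatocytes, and 4.85 to 4.99 and 4.84 to 4.97 for steroid-making cells. The defining markers Scgb1a1, Sftpc and Alb were under the bound in both groups. Above it were the club cell markers Cbr2 (6.70 in VECTOR and 6.28 in AC9) in both groups and Lypd2 (6.29 and 5.91) in VECTOR alone, and the type 2 cell markers Abca3 (9.20 and 9.11) in both and Napsa (6.23 and 5.92) in VECTOR alone. Among the 7 markers of steroid-making cells, Inha (6.34 in VECTOR and 6.27 in AC9) was above the bound in both groups. Cyp11a1 and Cyp17a1 of that list are P450 genes already counted, so they add no separate check. All 7 club cell markers had negative changes, from -0.42 for Cbr2 and -0.39 for Lypd2 (adjusted p 0.141 and 0.0637) to -0.06, the direction of the P450 genes that fell. Their part in those falls was not tested. Of 6 leukocyte markers 1, Cd52, rose under the bound, 3 had an unadjusted p under 0.05 and 3 were higher in AC9 without overlap (mean level 4.60 to 4.79 and 4.87 to 4.97). Of these 6 markers, 5 lay under the bound in both groups, Ptprc among them. Laptm5 was above it in both (6.28 in VECTOR and 6.54 in AC9). Of 9 markers of endothelium and fibroblasts 0 passed, with 2 at an unadjusted p under 0.05 (5.08 to 5.13 and 5.15 to 5.20). Of these 9, 7 lay under the bound in both groups. Esam (7.34 in VECTOR and 7.04 in AC9) and Col1a1 (6.95 and 7.01) were above it in both.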

How the data were processed

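RNA of 6 samples was hybridised to Affymetrix Clariom S arrays, per the labels' protocols. The deposited values are log2 intensities per probe set made by the authors with RMA, per the submitters' processing notes; no software or build is named for them here. Gene names came from the platform annotation (19572 probe sets with 1 symbol, all matched to RefSeq, GRCm38.p6), keeping the probe set with the highest mean per gene. AC9 and VECTOR were compared with limma 3.58.1 in R 4.3.3 (lmFit, eBayes, two-sided) on the values as deposited, with no filter, with Benjamini-Hochberg adjustment over 19505 genes. The fit was tested on simulated data. The number of arrays limits the precision. The values given array by array cover every P450 gene above the bound in a group or called; from each list of related genes the 3 largest called changes were named, or the smallest p, and Arnt, Tiparp, Vdr, the markers quoted and the P450 genes quoted under the bound were added after their values were seen. The P450 genes, the lists and the markers were chosen with earlier results of these data known. Alternatives covered the prior, scaling, dim genes, probe sets, array weights, the replicate block, the threshold, the bound and each array left out; adding the negative controls to the fit was chosen after seeing the data.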

Additional observations from a re-analysis of the deposited data

Results flagged for a closer look

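Signals appeared in probe sets outside the comparison of genes. Of the 23 background probe sets, 19 were lower in AC9 with no overlap between the groups, by up to -0.50. Of the 5222 negative control probe sets, 150 were called by limma when fitted with the genes, 85 higher and 65 lower.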

How the results depend on the processing

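Cyp1b1, Cyp4b1, Cyp26b1, Cyp2j6, Cyp4f16, Cyp4a12a and Cyp27b1 kept direction and call under every setting run for them, an adjusted p of 0.01 included. Of 328 values for 21 P450 genes under other settings, 290 kept both, 25 lost the call, 1 gained it and 12 changed sign; of 352 values for 22 related genes, 337 kept both, 12 lost the call and 3, all of Cyp51, gained it. The count of lower P450 genes, 9, was 6 to 9 with an array left out and 6 at an adjusted p of 0.01. It was 7 with dim genes left out, where Cyp4a12a and Cyp4a12b were not tested. The higher count, 2, was 1 to 3 with an array left out. It was 0 with genes under the 40th percentile left out and 0 with genes under the bound left out. Neither gene called higher was tested in those 2 settings. The higher count was 1 both at 0.01 and with the negative controls in the fit. Over all genes 3424 passed (1612 higher, 1812 lower), 1670 (729 and 941) at 0.01, and with an array left out 2174 to 3025 (968 to 1491 and 1206 to 1534), fewest without AC9 replicate 1. With the replicate number as a block 3062 genes passed, and 7 P450 genes were lower and 2 higher; Cyp2s1 and Cyp4f13 lost their call (adjusted p 0.0679 and 0.0580). With the negative controls in the fit these 2 genes and Cyp2ab1 lost it (0.0774, 0.0525 and 0.0808). The replicate numbers showed no clear pairing of the samples. Deviations of same-numbered samples correlated at 0.00846, 0.0814 and 0.00764. VECTOR replicates 1 and 2 correlated best with the AC9 sample of their own number, and VECTOR replicate 3 with AC9 replicate 1 (0.0878). With 3 arrays per group, correlations this weak cannot exclude a pairing. With the 95th percentile of the negative controls as the bound, 10 rather than 16 P450 genes exceeded it in both groups; with the 75th, 30 did, and 35 rather than 17 in at least 1. With a repeated quantile normalization the uncalled changes of Cyp20a1, Cyp4f17 and Cyp4f37 turned to -0.0058, 0.0067 and 0.0087; with an array left out they ran from -0.0382 to 0.116, -0.0899 to 0.0223 and -0.0944 to 0.0740, those of Cyp2f2 from -0.0719 to 0.0657 and of Cyp3a13 from -0.0564 to 0.0932. The cause was not tested where a result moved for another reason than fewer arrays, fewer genes or a stricter threshold.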
